A study of Mus musculus with 2 samples.

Results

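The genes described here drive chromosome copying and cell division. They are 40 of the 24421 gene symbols counted in hematopoietic stem cells (HSCs) of the mouse, and were chosen by name as rows of the deposited count tables. 16 of them act in DNA replication (*Mcm2* to *Mcm7*, *Pcna*, *Rrm1*, *Rrm2*, *Tyms*, *Tk1*, *Gins1*, *Gins2*, *Cdc45*, *Cdc6* and *Cdt1*) and 24 in mitosis, and the groups were kept apart as a measure of cycling cells in the sorted fraction. All 40 were found in both libraries, all had more than 3 counts in each, and all passed the filter of a mean of at least 1 CPM, the count scaled to the total of its library.

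The series holds 1 WT library, of genotype Ezh2 +/+ CreERT+/-, and 1 library labelled Ezh2 KO, of genotype Ezh2 Δ/Δ CreERT+/-, both on C57BL/6. In both arms CD45.2 bone marrow had been placed in lethally irradiated CD45.1 hosts, and the labels give tamoxifen at 100 µl of 10 mg/ml on each of 5 days, which activates the Cre recombinase. HSCs were sorted 1 month afterwards as the CD150+ cells negative for CD48, CD34 and Flt3 within the Lin- Sca-1+ c-kit+ fraction, and their RNA was amplified as full-length cDNA. The labels do not say which promoter drives the CreERT transgene, how old the mice were, how many were pooled for a library, or whether host CD45.1 cells were gated out. Each genotype is represented by a single library, so every difference below compares those libraries and has no replicate check. Fewer cycling cells and less RNA per cycling cell cannot be told apart in such bulk samples.

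Gene counts added up to 5763118 (WT) and 4157280 (the library labelled Ezh2 KO), so that 3 counts, taken as the floor, amounted to 0.521 and 0.722 CPM. *Ezh2*, the targeted gene, had 166 and 129 counts, or 142.5 and 150.3 normalized counts, a log2 ratio of 0.08 (95% interval -0.27 to 0.42), so no fall in its gene-level count was seen, and each library keeps the name that its label gives. *Xist*, the RNA of the inactive X chromosome, had 801 counts in WT against 4, while the Y-linked gene *Ddx3y* had 0 and 275. The sex of the cells thus moved with the label, and genotype and sex cannot be told apart. The 14 HSC markers were all detected, with a summed log2 ratio of 0.04 (0.01 to 0.06), and their lowest counts were those of *Hoxb5*, at 185 and 120. Of the genes of the surface proteins that the sort excludes, *Cd48* had 12 and 11 counts, but *Cd34* had 957 and 829 and *Flt3* 98 and 140.

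Adult HSCs are mostly quiescent, and few of them are in S, G2 or M phase at a given time. In G1 the MCM proteins are loaded onto replication origins by Cdc6 and Cdt1, and in S phase Cdc45 and the GINS complex turn them into an active helicase. Most replication genes are driven by E2F factors from late G1 onwards. Most mitosis genes instead peak in G2 and M under B-Myb–FOXM1 complexes. These act through a short element called CHR, together with CCAAT boxes bound by NF-Y. *Mki67*, *Top2a* and the cyclin genes are in common use as markers of dividing cells.

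The promoters of the 2 groups carried different motif letters. Windows of 300 bases (250 before and 50 after the start of a gene, RefSeq, GRCm38.p6) were held for 13 of the 16 replication genes, 20 of the 24 mitosis genes and 9623 of the genes tested for expression. On either strand, the E2F letters TTTGGCGC, TTTCCCGC, TTTGCCGC or TTTCGCGC occurred in 6 of 13 replication genes (46.2%), in 1 of 20 mitosis genes and in 4.68% of all genes tested. The CHR letters TTTGAA occurred in 15 of 20 mitosis genes (75%), in 2 of 13 replication genes (15.4%) and in 14.2% of all. CCAAT was found in 18 of 20, in 9 of 13 and in 42.9%. The windows of 3 replication genes (*Mcm4*, *Gins1*, *Gins2*) and 4 mitosis genes (*Aurkb*, *Ccna2*, *Kif20a*, *Tpx2*) were not analysed here. A match is a description of letters and not a bound site.

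**Figure D1:**
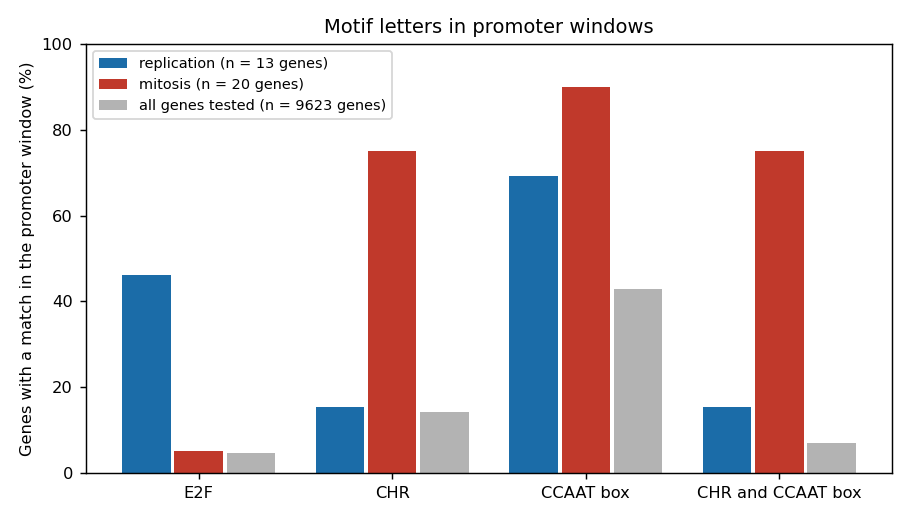
Percentage of genes (vertical axis) with at least 1 match to the E2F, CHR and CCAAT letters, or to both CHR and CCAAT, in their promoter windows, for replication genes (blue), mitosis genes (red) and all genes tested (gray). E2F letters were in 46.2% of replication genes and CHR letters in 75% of mitosis genes, against 4.68% and 14.2% of all genes tested.

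The following 5 windows show these arrangements for members that the results turn on, namely the most abundant helicase gene, another helicase gene with the same arrangement, a mitosis gene called higher, a kinesin gene and the mitosis gene called lower. They are printed 5′ to 3′ along the strand of the gene, with E2F, CHR and CCAAT letters on either strand in capitals.
Mcm6, chr1:128359656-128359955, minus strand: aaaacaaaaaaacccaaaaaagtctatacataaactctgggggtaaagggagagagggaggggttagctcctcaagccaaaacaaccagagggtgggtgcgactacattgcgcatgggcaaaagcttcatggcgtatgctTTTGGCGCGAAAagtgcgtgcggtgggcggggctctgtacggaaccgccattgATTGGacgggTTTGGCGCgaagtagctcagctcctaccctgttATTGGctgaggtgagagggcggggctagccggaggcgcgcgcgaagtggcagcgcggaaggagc
Mcm5, chr8:75109259-75109558, plus strand: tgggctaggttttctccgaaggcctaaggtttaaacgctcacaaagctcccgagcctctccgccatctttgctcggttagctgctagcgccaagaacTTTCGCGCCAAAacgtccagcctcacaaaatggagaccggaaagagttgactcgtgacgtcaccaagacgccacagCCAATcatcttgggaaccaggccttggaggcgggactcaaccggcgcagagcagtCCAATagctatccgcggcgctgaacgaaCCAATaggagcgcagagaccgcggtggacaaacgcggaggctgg
Mki67, chr7:135716330-135716629, minus strand: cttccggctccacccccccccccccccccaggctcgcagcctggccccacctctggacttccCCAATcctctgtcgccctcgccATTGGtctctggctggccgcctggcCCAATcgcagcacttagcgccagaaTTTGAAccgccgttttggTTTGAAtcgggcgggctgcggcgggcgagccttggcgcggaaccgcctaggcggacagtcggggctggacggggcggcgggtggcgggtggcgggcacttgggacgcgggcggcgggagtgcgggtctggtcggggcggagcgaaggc
Kif11, chr19:37376132-37376431, plus strand: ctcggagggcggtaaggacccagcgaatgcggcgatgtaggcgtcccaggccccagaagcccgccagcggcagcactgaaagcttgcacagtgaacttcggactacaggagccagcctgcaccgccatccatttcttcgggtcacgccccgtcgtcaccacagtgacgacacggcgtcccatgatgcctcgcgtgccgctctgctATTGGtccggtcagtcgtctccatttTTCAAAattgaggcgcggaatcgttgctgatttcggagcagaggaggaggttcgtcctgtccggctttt
Bub1, chr2:127831810-127832109, minus strand: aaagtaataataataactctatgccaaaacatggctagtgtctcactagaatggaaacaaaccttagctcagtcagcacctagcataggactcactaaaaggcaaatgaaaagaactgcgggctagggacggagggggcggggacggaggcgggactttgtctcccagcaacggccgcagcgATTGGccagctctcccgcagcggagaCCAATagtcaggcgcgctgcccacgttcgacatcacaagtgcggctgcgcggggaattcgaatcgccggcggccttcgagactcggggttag
In *Mcm6*, E2F letters began 110 and 106 bases before the start, on opposite strands and sharing bases, and again at 47. *Mcm5* had the same kind of pair at 153 and 149 bases. *Mki67* had CHR letters at 116 and 98 bases, downstream of 3 CCAAT matches, and *Kif11* had 1 CHR match at 19 bases. *Bub1* had CCAAT letters at 68 and 42 bases and no TTTGAA in the window.

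Both groups were expressed in these sorted cells, replication genes at a higher median level than mitosis genes. Levels of different genes were compared as CPM per kb of exon. The median over replication genes was 31.6 CPM per kb for WT and 31.0 for the library labelled Ezh2 KO, and that over mitosis genes was 9.10 and 10.0. The median of all genes tested was 11.4 in each, so the median of mitosis genes lay near it and that of replication genes above it. In WT, *Tyms* (10.4), *Cdc45* (9.31), *Gins1* (7.02), *Gins2* (6.76) and *Cdc6* (5.37) were below 11.4, and the other replication genes above it. Summed over genes, replication RNA made up 2121 CPM in WT and 1898 CPM in the other library, and mitosis RNA 637.2 and 724.0 CPM, a ratio of 3.33 and 2.62. The 6 MCM genes alone held 74.4% and 71.7% of the replication counts.

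The order of the levels was much the same in the 2 libraries. *Mcm6*, a subunit of the MCM helicase, led with 108.3 CPM per kb in WT, against 89.5 in the library labelled Ezh2 KO. *Pcna*, the sliding clamp of the DNA polymerases, had 96.4 and 93.6, and *Mcm7* had 94.6 and 84.9. At the other end of the replication group, the loading factor gene *Cdc6* had 5.37 and 4.73. Among mitosis genes the highest by the mean of both libraries were *Ube2c*, the ubiquitin-conjugating enzyme of the anaphase-promoting complex (24.4 and 33.8), *Cdc20*, its activator (25.2 and 23.1), and *Cenpa*, the centromeric histone (16.7 and 25.1). In WT alone, *Ccna2* (17.7), *Cdca8* (17.4) and *Ccnb2* (16.8) were above *Cenpa*. The lowest by that mean were the 3 genes with the longest exon sequence, *Cenpe*, *Cenpf* and *Mki67*, at 0.61, 0.97 and 0.76 CPM per kb in WT and 0.64, 0.95 and 1.72 in the other library, where *Bub1*, at 1.48, was below *Mki67*. Per-kb levels of *Gins2* are uncertain, because 70.7% of its annotated exon bases overlap those of *Gse1* on the opposite strand. Across members, Spearman's rho between the 2 libraries was 0.98 for replication (n = 16) and 0.91 for mitosis genes (n = 24), which share libraries and gene lengths and are not independent replicates.

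**Figure D2:**
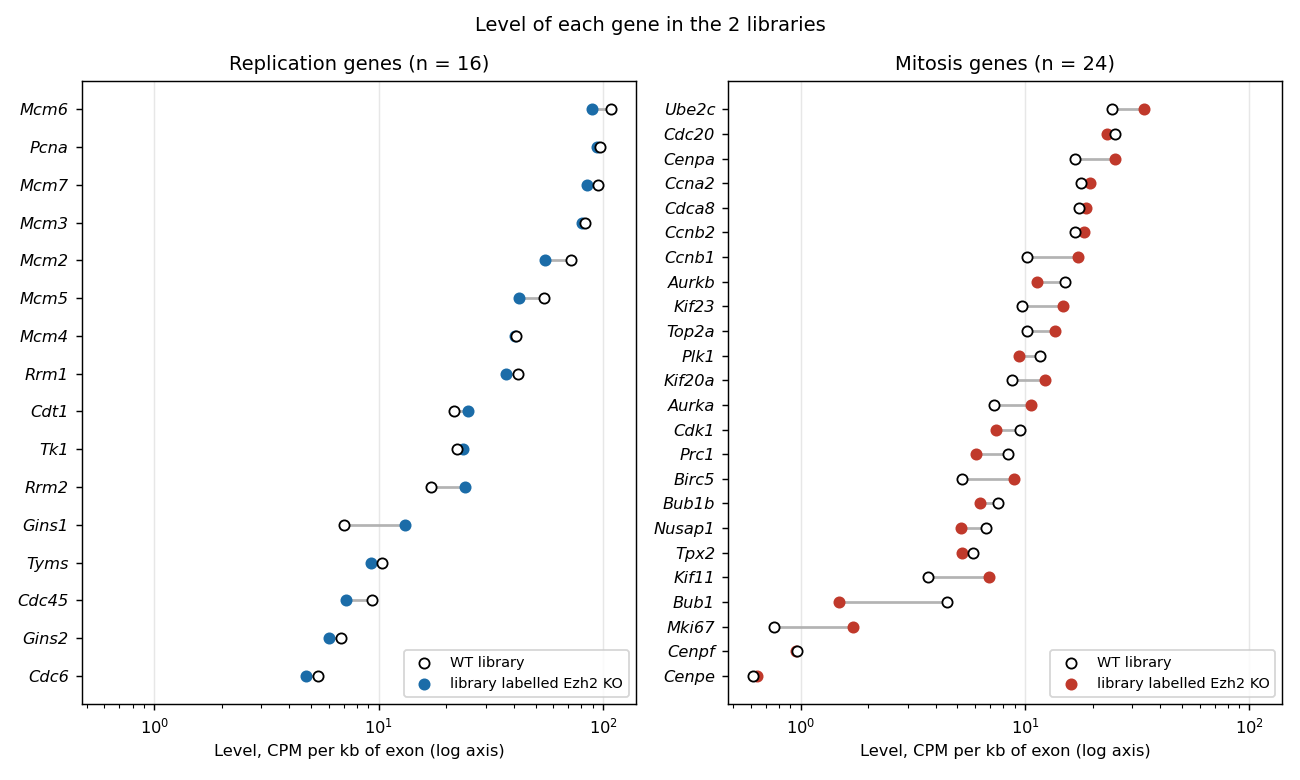
Level of each replication gene (left, n = 16) and mitosis gene (right, n = 24) in CPM per kb of exon on a log axis, with 1 open point for the WT library and 1 filled point for the library labelled Ezh2 KO. Replication genes run from *Cdc6* (5.37 in WT) to *Mcm6* (108.3), while no mitosis gene is above 33.8.

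The comparison of the libraries asked how these genes differed between WT and the library labelled Ezh2 KO. Ratios are given as that library over WT, as log2 of the normalized counts (divided by DESeq2 size factors) plus 1, with exact 95% intervals for counting error only. Where values are joined by "and", the WT value comes first. A gene was called when the adjusted value of an exact binomial comparison of its 2 counts was below 0.01 and the difference was at least 2-fold. Of the 40 genes, 1 was called higher (*Mki67*) and 1 lower (*Bub1*), both mitosis genes. Of all 12588 genes tested, 2.80% were called higher and 2.30% lower, so 2 in 40 is near the background. An edgeR exact test was also run with an assumed coefficient of variation of 0.2 between libraries. It called 0 of the 40 and 0.50% of all genes tested. In that test 2 of the 40 had an unadjusted value below 0.05, and the share of all genes below it was not counted.

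No replication gene was called, and 12 of the 16 had log2 ratios below 0. Their median log2 ratio was -0.19, against -0.003 over all genes tested, of which 49.6% were above 0 (48.0% of those in the expression range of the group). The interval lay wholly below 0 for 5 of the 16 and wholly above 0 for 2, where 20.8% and 19.2% of all genes tested did so. In the expression range of the group, 23.1% and 19.2% did so. Summed over the group, 12224 WT counts stood against 7890, which gave a log2 ratio of -0.19 (-0.23 to -0.15) after scaling. Among the 9235 genes in that range, 0.964% were called higher and 1.16% lower at 2-fold, and 3.83% and 4.79% at 1.5-fold, against 0 of the 16 at either threshold. The median stayed between -0.19 and -0.16 under the alternatives run.

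The 6 subunits of the MCM helicase, the ring that unwinds DNA ahead of the fork, all had log2 ratios below 0. *Mcm2* had 897.3 normalized counts in the library labelled Ezh2 KO against 1195 in WT (log2 ratio -0.41, -0.54 to -0.29). *Mcm5* had 907.1 and 692.2 (-0.39, -0.54 to -0.24), and *Mcm6* 2344 and 1897 (-0.30, -0.39 to -0.22). *Mcm7* followed at -0.19 (-0.30 to -0.07), while the intervals of *Mcm3* (-0.07) and *Mcm4* (-0.04) spanned 0. The ring holds each subunit once, and the ratios of their RNAs ran from -0.41 to -0.04. Summed over the helicase, the log2 ratio was -0.24 (-0.29 to -0.20). *Mcm7* has a processed pseudogene of 97.7% identity over 2157 bases, so its count is uncertain.

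The other replication genes did not share one direction. *Pcna* had 688.7 normalized counts in the library labelled Ezh2 KO against 723.4 in WT (log2 ratio -0.07, -0.23 to 0.08). In the supply of DNA precursors, the subunits of ribonucleotide reductase differed from each other. *Rrm1*, the large subunit, had 827.2 and 715.5 normalized counts (-0.21, -0.36 to -0.06), and *Rrm2*, the small subunit whose amount follows S phase, had 186.2 and 258.7 (0.47, 0.20 to 0.75). The gene of the small subunit was thus the higher in the library labelled Ezh2 KO, and that of the large subunit in WT. *Tyms*, which makes thymidylate, was at -0.20 and *Tk1*, which salvages thymidine, at 0.05, and both intervals spanned 0. Pseudogene copies of at least 95% identity also make the counts of *Pcna*, *Rrm2* and *Cdc6* uncertain.

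The factors that load and fire the helicase had lower counts and wider intervals. *Gins1*, a subunit of the GINS complex, had the highest log2 ratio of the group, 0.85 (0.28 to 1.46), on 44 and 59 counts, and was not called. WT reads were also drawn at random, in a single draw, down to the depth of the other library (thinning). The ratio of *Gins1* was then 1.035 and passed the call. *Gins2*, of the same complex, was at -0.20 (-0.59 to 0.17), and *Cdc45* at -0.40 (-0.87 to 0.05) on 115 and 64 counts. *Cdc6* and *Cdt1*, the loading factors, were at -0.21 (-0.60 to 0.17) and 0.19 (-0.07 to 0.45). In this subset only the interval of *Gins1* excluded 0.

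**Figure D3:**
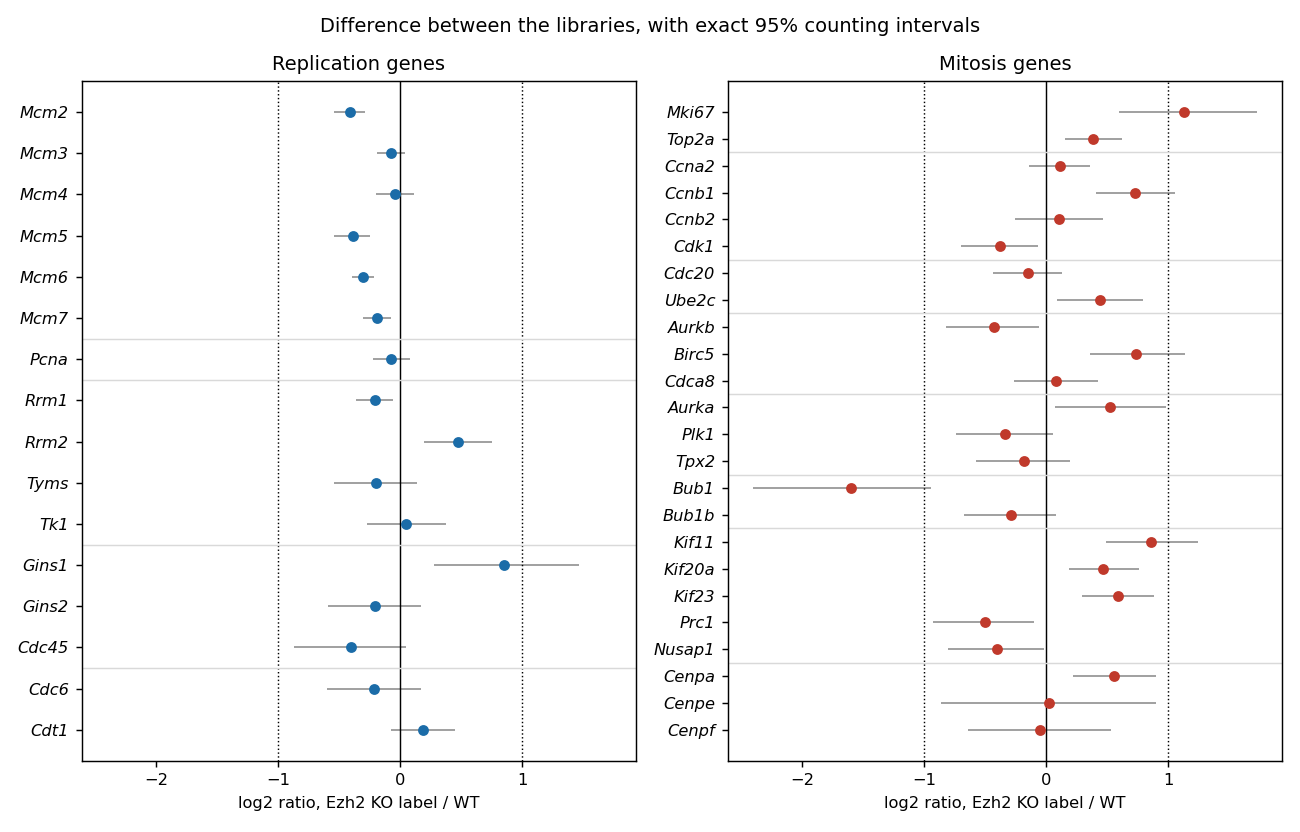
log2 ratio of normalized counts, library labelled Ezh2 KO over WT, for each replication gene (left) and mitosis gene (right), grouped by role. Bars are exact 95% counting intervals and dotted lines mark 2-fold. All 6 MCM genes lie below 0, and mitosis genes spread from *Bub1* (-1.60) to *Mki67* (1.13).

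Mitosis genes were split between the libraries. Of the 24, 14 had log2 ratios above 0 and 10 below, with a median of 0.09, where 50.3% of genes in their expression range were above 0. The interval lay wholly above 0 for 10 genes and wholly below 0 for 5, again against 19.2% and 20.8% of all genes tested. In their expression range, 18.1% and 19.4% of genes did so. At 1.5-fold in place of 2-fold, 4 were called higher (*Mki67*, *Kif11*, *Birc5* and *Ccnb1*) and 1 lower (*Bub1*), where 4.97% and 5.05% of all genes were, and 6.36% and 6.56% of the 6513 genes in the same expression range. At 2-fold, 2.75% and 2.66% of that range were called, against 1 and 1 of the 24. Summed over the group, 3672 WT counts stood against 3010, with a log2 ratio of 0.15 (0.08 to 0.22) after scaling. The median was 0.19 after thinning of the WT library and 0.05 after correction for exon length and GC, the extremes of the alternatives run.

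*Mki67* and *Top2a* encode proteins of the mitotic chromosome, Ki-67 at its surface and topoisomerase IIα, which untangles sister DNA. *Mki67* (chromosome 7, 135689784 to 135716361, GRCm38) had 44 counts in WT, against 72 in the library labelled Ezh2 KO (37.8 and 83.9 normalized counts). It was called higher, with a log2 ratio of 1.13 (0.59 to 1.73), but at 0.89 after thinning it was no longer called. A pseudogene copy of 216 bases of the gene adds to the uncertainty. *Top2a*, with more reads (308 and 296), had a log2 ratio of 0.38 (0.15 to 0.62), so the intervals of both genes lay above 0.

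Cdk1 and its cyclins start mitosis. *Ccnb1*, encoding cyclin B1, had 207.4 normalized counts in the library labelled Ezh2 KO against 125.3 in WT (log2 ratio 0.72, 0.40 to 1.05). *Ccnb2*, encoding cyclin B2, was at 127.0 and 136.3 (0.10, -0.26 to 0.46), and *Ccna2*, encoding cyclin A2, at 260.0 and 280.8 (0.11, -0.14 to 0.36). *Cdk1*, the kinase they bind, had 205.1 and 157.3 (-0.38, -0.70 to -0.07). 3 processed pseudogenes and 1 unprocessed pseudogene share stretches of at least 95% identity with *Ccnb1*, so its count is uncertain. For the exit from mitosis, *Cdc20* was at -0.15 (-0.44 to 0.13) and *Ube2c* at 0.44 (0.09 to 0.80).

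The kinases of the spindle and their partners gave ratios of both signs. *Aurka*, the spindle pole kinase, had 100.2 normalized counts in the library labelled Ezh2 KO against 69.5 in WT (0.52, 0.07 to 0.98). *Aurkb*, the kinase of the chromosomal passenger complex at centromeres, had 145.0 and 107.2 (-0.43, -0.82 to -0.06). These related kinases therefore had intervals on opposite sides of 0. Of the partners of *Aurkb* in that complex, *Birc5*, which encodes survivin, was at 0.74 (0.36 to 1.13) on 88.4 and 148.0 normalized counts, and *Cdca8*, which encodes borealin, at 0.08 (-0.26 to 0.42). The intervals of *Plk1* (-0.34), a kinase of mitotic entry, and of *Tpx2* (-0.19), the activator of *Aurka*, spanned 0.

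*Bub1*, a kinase of the checkpoint that delays anaphase until every chromosome is attached, had the lowest ratio of all 40 genes and was called lower. It (chromosome 2, 127801122 to 127831865, GRCm38) had 89 counts in WT, against 21 in the library labelled Ezh2 KO (76.4 and 24.5 normalized counts), with a log2 ratio of -1.60 (-2.40 to -0.94). *Bub1b*, which encodes the related checkpoint protein BubR1, had 137.3 and 111.9 normalized counts (-0.29, -0.68 to 0.08). *Bub1* was called under each scaling, pseudocount and filter tried, after thinning and after the length and GC correction, though not with an assumed coefficient of variation of 0.2.

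Genes of the spindle midzone and motors had ratios of both signs. *Kif11*, which pushes the spindle poles apart, had 160.8 normalized counts in the library labelled Ezh2 KO against 88.4 in WT (0.86, 0.48 to 1.25). *Kif23* and *Kif20a*, kinesins of cytokinesis, were at 0.58 (0.30 to 0.88) and 0.47 (0.18 to 0.76). *Prc1* and *Nusap1*, which bundle microtubules, were at -0.51 (-0.93 to -0.10), with 126.1 and 88.6 normalized counts of *Prc1*, and -0.41 (-0.81 to -0.02). The intervals of these 3 kinesin genes lay above 0, but those of 8 kinesin genes of the wider mitosis list did not follow. Of those 8, 6 had log2 ratios below 0, with intervals wholly below 0 for *Kif2c* (-0.85, -1.45 to -0.31) and *Kif20b* (-0.77, -1.42 to -0.18) and wholly above 0 for *Kif18a* (0.62, 0.01 to 1.26). Of the exon bases of *Kif20a*, 27.9% overlap *Cdc23* on the opposite strand, so its count is uncertain. At the centromere, *Cenpa* was at 0.56 (0.22 to 0.90), and *Cenpe* (0.03) and *Cenpf* (-0.05), read from 21 to 62 counts, had intervals that spanned 0. The signs of both turned after thinning.

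The ratios of genes with and without the promoter letters overlapped. The 15 mitosis genes with CHR letters had log2 ratios from -0.51 to 1.13 with a median of 0.10, and the 5 without from -1.60 to 0.74 with a median of 0.03. The 6 replication genes with E2F letters had a median of -0.20, as had the 7 without. Spearman's rho of the log2 ratio with exon length was -0.58 over the 16 replication genes and -0.003 over the 24 mitosis genes, with the same 2 libraries behind every point.

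**Figure D4:**
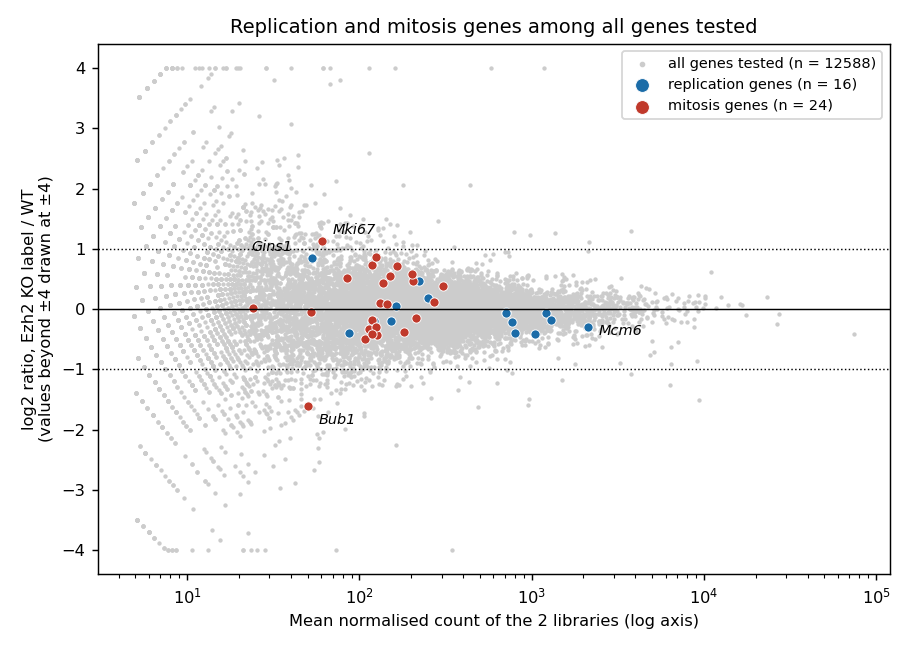
log2 ratio (library labelled Ezh2 KO over WT) against the mean normalized count of the 2 libraries on a log axis, for 12588 genes tested (gray), 16 replication genes (blue) and 24 mitosis genes (red). Dotted lines mark 2-fold. *Mki67* and *Bub1* are the only colored points beyond them, at counts where many gray points are too.

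A wider list of replication and mitosis genes, which holds none of the 40, gave smaller sums of the same sign, though its genes were split in direction. Of 47 other replication genes (polymerases, origin recognition, clamp loader and others), 1 was called higher, *Ticrr*, and 0 lower, with a median log2 ratio of -0.02. Their summed log2 ratio was -0.09 (-0.13 to -0.06), where that of all genes tested was -0.03. Of the 47, 23 had log2 ratios above 0 and 24 below. Of 56 other mitosis genes listed, 55 were found under their symbol. Of these, 28 had log2 ratios above 0 and 27 below, and 3 were called higher and 2 lower. Their median was 0.01 and their summed log2 ratio 0.06 (0.00 to 0.11). The 5 called were *Ect2* (38 and 74 counts, log2 ratio 1.38), an activator of cytokinesis, *Dlgap5* (33 and 56, 1.18), a spindle protein, *Sgol1* (14 and 34, 1.64), which guards centromeric cohesion, *Aspm* (63 and 9, -2.26), a spindle pole protein, and *Cenpi* (43 and 8, -1.88), of the inner kinetochore. *Ticrr*, which helps to fire origins, had 32 and 53 counts (1.14, 0.51 to 1.85). Each of these genes was below 100 counts in both libraries. Of all genes tested, 2.80% were called higher and 2.30% lower, and the called counts of the 2 lists were not tested against these shares.

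Summed markers of other cell types were higher in the library labelled Ezh2 KO. Of 10 granulocyte markers, 5 were called higher and 0 lower, and their sum was 2098 CPM in WT and 3918 CPM there. The list was split, since *Elane*, of the primary granules, was at -0.76 (-0.94 to -0.58), with *Prtn3* at -0.07 and *Ctsg* at -0.01. *Mpo*, at 0.22 (0.12 to 0.32), and *S100a9*, at 0.96 (0.87 to 1.05), were above 0 but not called. *Ngp*, *Ltf*, *Camp*, *Lcn2* and *S100a8* were the 5 called. Of 8 erythroid markers, 4 were called higher, with sums of 1801 and 2294 CPM. *Car2*, not called, held 1713 and 2066 CPM of these (log2 ratio 0.24). *Aqp1* was at -0.32 (-0.70 to 0.04), and the other 7 were above 0. Of 9 B lymphoid markers, 5 passed the filter and 4 were called higher, with sums of 48.4 and 94.8 CPM. *Cd79b*, not called, held 43.6 and 55.1 CPM of these. 5 of the 9 were at 0 in WT, among them *Pax5*, *Rag1* and *Il7r*, with 1, 0 and 1 counts in the other library. Of all genes tested, 2.80% were called higher and 2.30% lower. The 4 eosinophil markers had 0 counts in WT and 768.5 CPM in all in the other library, led by *Prg2* with 2030 counts. *Flt3*, whose protein the sort excludes, had a log2 ratio of 0.95 (0.57 to 1.34). The part of such cells in the mitosis gene ratios was not tested.

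**Figure D5:**
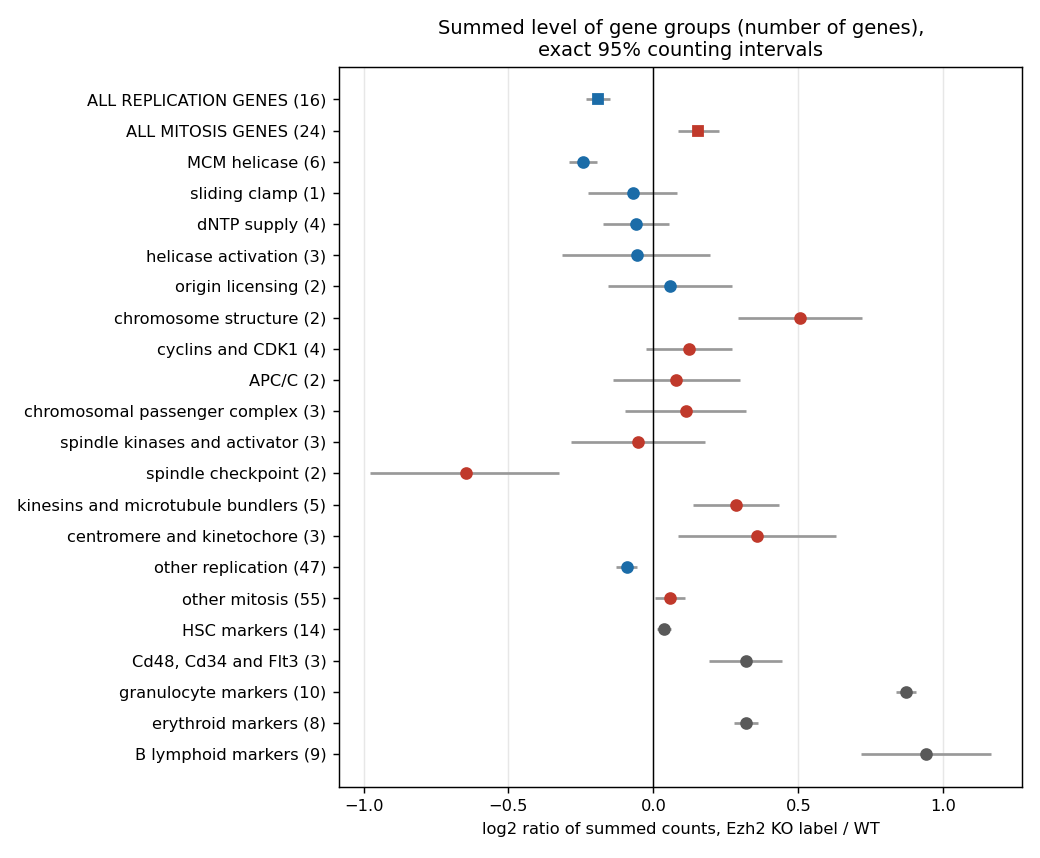
log2 ratio of summed raw counts after scaling, library labelled Ezh2 KO over WT, for all replication genes, all mitosis genes, each role within them, other genes of the pathways and cell type markers (number of genes in brackets). Bars are exact 95% counting intervals. Replication genes lie at -0.19 and mitosis genes at 0.15, and granulocyte and B lymphoid markers are farther to the right than either. Eosinophil markers are not drawn, since WT has 0 counts of them.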

How the data were processed

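RNA-seq was performed on 2 libraries of sorted HSCs, 1 per genotype. The deposited files list whole-number counts for each gene symbol, not normalized. Per the submitters' processing notes and the methods, the authors aligned the single-end reads to mm10 with TopHat2 (2.0.13) and Bowtie2 (2.1.0) and took counts from StringTie. The closing 5 entries of each file have htseq-count names, so the counter and its strand setting are uncertain; they held 56.1% (WT) and 56.9% of all entries and stayed out of totals and tests.

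Size factors (median of ratios, DESeq2 1.42.0, R 4.3.3) scaled the 2 libraries. With 1 library per group, no model could estimate a spread. For 12588 genes whose mean reached 1 CPM, the 2 counts were compared by an exact binomial test, two-sided, with Benjamini-Hochberg adjustment over all of them; it compares libraries, not conditions. Called genes had an adjusted value below 0.01 and at least a 2-fold difference. Intervals are exact (Clopper-Pearson, 95%) and cover counting error only. They treat each read as a separate molecule. Amplified reads without molecular identifiers are not, so the intervals may be too narrow even for that error. Exon lengths came from GENCODE M21 (GRCm38) transcripts paired with RefSeq. Exons of 7 of the 40 genes overlap another counted gene on the opposite strand, and 6 have a pseudogene copy (BLAST 2.17.0, at least 200 bases at 95% identity). The calculations were tested on simulated data with planted changes and counting error only. That simulation could not show how calls or intervals behave with spread between libraries or with amplification.

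The members and all lists were chosen with earlier results of these data known. All 40 genes are accounted for; full values were given for called genes, the 3 highest levels and the extreme ratios of each group, and common cycling markers. Alternatives were other scalings, pseudocounts, filters, thresholds, thinning, a length and GC trend, and edgeR (4.0.16) exact tests with assumed variation.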

Additional observations from a re-analysis of the deposited data

How the results depend on the processing

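No paired analysis was possible because only 1 library stands for each genotype. Against 2 genes called among the 40, a 1.5-fold threshold gave 5, no fold threshold gave 14, and the edgeR exact test gave 0 with an assumed coefficient of variation of 0.2 and 0 with 0.4. Of all 12588 genes tested, 5.11% were called as reported, and 10.0%, 21%, 0.50% and 0.0794% at these settings in turn. At 0.2, 2 of the 40 had an unadjusted value below 0.05, and at 0.4 this was 0. The share of all genes tested below that unadjusted value was not counted. The other 8 alternatives for this count each gave 2, but thinning of the WT library exchanged *Mki67* (0.89) for *Gins1* (1.035). The thinned counts came from a single random draw, whose own spread was not measured. Thinning also moved the median log2 ratio of mitosis genes to 0.19 and turned the signs of *Cenpe* (-0.0778) and *Cenpf* (0.27). Of 240 log2 ratios of single genes under scaling, thinning, trend and pseudocount alternatives, 236 kept their sign and their side of the call. The median and the sum of replication genes stayed below 0, and those of mitosis genes above 0, under every alternative run for them. Counts between 21 and 100 per gene, as for *Cenpe*, *Bub1* and *Mki67*, limit what these libraries can show. Without replicates, the spread between libraries of a genotype was not measured.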
